A study of Mus musculus with 6 samples.

Results

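The genes of MHC class I antigen presentation were examined in RNA-seq of mouse T cells cocultured with control or DB2313-treated antigen-presenting cells. The 10 genes were taken by name from the deposited table, which lists 54532 genes: H2-K1, H2-D1 and H2-T23 among the heavy chains, the light chain B2m, the peptide transporter and its partner (Tap1, Tap2 and Tapbp), the immunoproteasome subunits Psmb8 and Psmb9, and the transactivator Nlrc5. All 10 were found once each, and all 10 passed the filter on low counts. DB2313 is a small molecule that inhibits the transcription factor Spi1 (PU.1).

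GEO's labels call the 6 samples primary T cells incubated with DC cells, of which 3 had DC cells not treated with DB2313 (control) and 3 had DC cells treated with DB2313. The methods of the study instead describe splenic CD8T cells, stimulated through CD3 and CD28 on beads, that were kept for 24 hr with peritoneal macrophages drawn by thioglycolate, so the labels and the methods differ on the partner cells. According to the methods, macrophages of both groups had received IFN-γ at 10 ng/mL for 12 hr, and DB2313 was used at 14 nM. The strain, age and sex of the mice that gave these cells, and whether the 3 samples of a group were separate cultures, are not stated in the sources used here, so p-values measure only the spread between these samples.

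Class I molecules are carried by nearly every nucleated cell and show peptides from the cell's own proteins to CD8T cells. Proteins are cut by the proteasome, the peptides are pumped into the endoplasmic reticulum by the Tap1-Tap2 transporter, and tapasin (Tapbp) holds an empty heavy chain with B2m next to the transporter until a peptide fits. IFN-γ is known to induce most of these genes, in part through Irf1 and Nlrc5, and to swap constitutive proteasome subunits for induced ones.

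The promoters of the 3 heavy chains and of B2m are shown because these members are the most counted and because they did not move in the same direction. Each sequence is the 250 bases before the RefSeq start site on the strand of the gene in GRCm38.p6, 5′ to 3′, and capitals mark motif matches: κB (GGGATTCCC), an IRF element (TTTCNNTT), a CRE half-site (TGACG) and the CCAAT box, each searched on both strands. The window of H2-K1 is chr17:34000348-34000597 on the minus strand and that of H2-D1 is chr17:35262844-35263093 on the plus strand, which lies inside the longer gene model of the deposited table. The window of H2-T23 is chr17:36032702-36032951 on the minus strand. Its part up to 36032855, which holds its marked matches, also lies inside the gene model of the deposited table. The window of B2m is chr2:122147437-122147686 on the plus strand.
H2-K1: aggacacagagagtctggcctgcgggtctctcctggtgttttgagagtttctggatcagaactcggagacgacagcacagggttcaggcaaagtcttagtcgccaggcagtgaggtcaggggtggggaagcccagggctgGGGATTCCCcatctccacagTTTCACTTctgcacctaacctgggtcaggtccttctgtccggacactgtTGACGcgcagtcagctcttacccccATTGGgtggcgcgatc
H2-D1: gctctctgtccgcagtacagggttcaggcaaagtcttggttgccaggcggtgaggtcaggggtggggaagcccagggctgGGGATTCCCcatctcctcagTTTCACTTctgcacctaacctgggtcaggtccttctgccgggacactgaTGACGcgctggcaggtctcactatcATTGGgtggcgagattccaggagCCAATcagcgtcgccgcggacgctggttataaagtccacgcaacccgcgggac
H2-T23: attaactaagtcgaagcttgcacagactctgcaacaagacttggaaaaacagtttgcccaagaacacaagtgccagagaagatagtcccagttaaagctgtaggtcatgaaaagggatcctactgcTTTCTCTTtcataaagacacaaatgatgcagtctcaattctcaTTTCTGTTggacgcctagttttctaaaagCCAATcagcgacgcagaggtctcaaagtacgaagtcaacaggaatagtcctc
B2m: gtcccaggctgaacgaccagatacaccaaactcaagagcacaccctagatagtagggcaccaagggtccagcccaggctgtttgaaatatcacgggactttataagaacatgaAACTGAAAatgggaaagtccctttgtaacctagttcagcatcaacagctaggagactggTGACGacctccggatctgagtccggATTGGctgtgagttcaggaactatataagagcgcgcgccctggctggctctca

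The windows of H2-K1 and H2-D1 held a κB match, an IRF match, a CRE half-site and a CCAAT box in the same order, and 87.9% of their 190 aligned bases were identical. The κB letters were found in 0.354% of the 32817 mouse promoter windows of the same table, and in these 2 of the 8 members with a window. The IRF letters stood in 4 of the 8 (H2-K1, H2-D1, H2-T23 and B2m) against 23.9% of all windows, the CRE half-site in 5 against 20.8%, and CCAAT in 7 against 37.4%. The IFN-γ activated site (TTCNNNGAA) was matched in Psmb8 and in 8.29% of all windows. The PU.1 core (GAGGAA) was matched in H2-T23, after its start site, and in 28.3% of all windows. These counts are over windows from 250 bases before to 50 bases after the start, and matches describe letters, not binding.

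**Figure D1:**
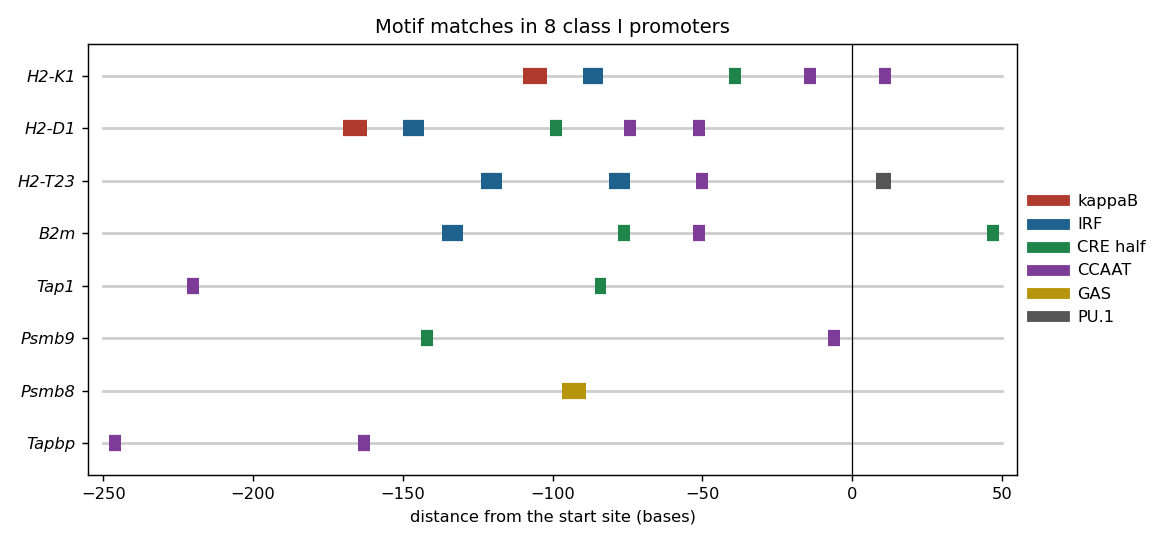
Motif matches in the 8 members' promoter windows, by distance from the start site in bases (0 is the start site; each coloured block is a match on either strand). H2-K1 and H2-D1 carry κB, IRF, CRE half-site and CCAAT matches in the same order, and Tapbp carries CCAAT matches alone.

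All values below are CPM (read counts scaled to a common library size with TMM factors), unless another scale is named, and a change is the log2 fold change of DB2313 over control from edgeR's quasi-likelihood test, adjusted over all 14883 genes tested. At an adjusted p below 0.05, 4 of the 10 members were higher with DB2313 (H2-K1, H2-T23, H2-D1 and Nlrc5), 2 were lower (Tapbp and B2m), and Tap1, Tap2, Psmb8 and Psmb9 did not pass. Among all genes tested, 20.8% were higher and 24.6% lower by this rule. Nothing about the 10 genes as a set is read from these counts, since so large a share of all genes was called. No member changed by more than 1 on the log2 scale, where 1.37% of all genes were higher and 5.30% lower past both thresholds. The median change of the members was 0.067 against 0.019 over all genes tested, and the members ranged from -0.23 to 0.19.
The small changes make the calls depend on how libraries were scaled. With library size or upper quartile scaling, 8 members were higher and 1, Tapbp, was lower, against 33.1% and 19.2% of all genes with library size and 29.0% and 20.8% with upper quartile. With libraries scaled to the counts of 20 T cell markers, all 10 were lower, against 77.3% of all genes lower and 1.20% higher. Scaling to those markers moved the median of all genes by -0.58, and the members' median lay 0.047 above that of all genes with it, against 0.048 with TMM. Over all genes, 54.2% of the calls were lower with TMM, 36.6% with library size, 41.8% with upper quartile and 98.5% with T cell marker scaling.

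**Figure D2:**
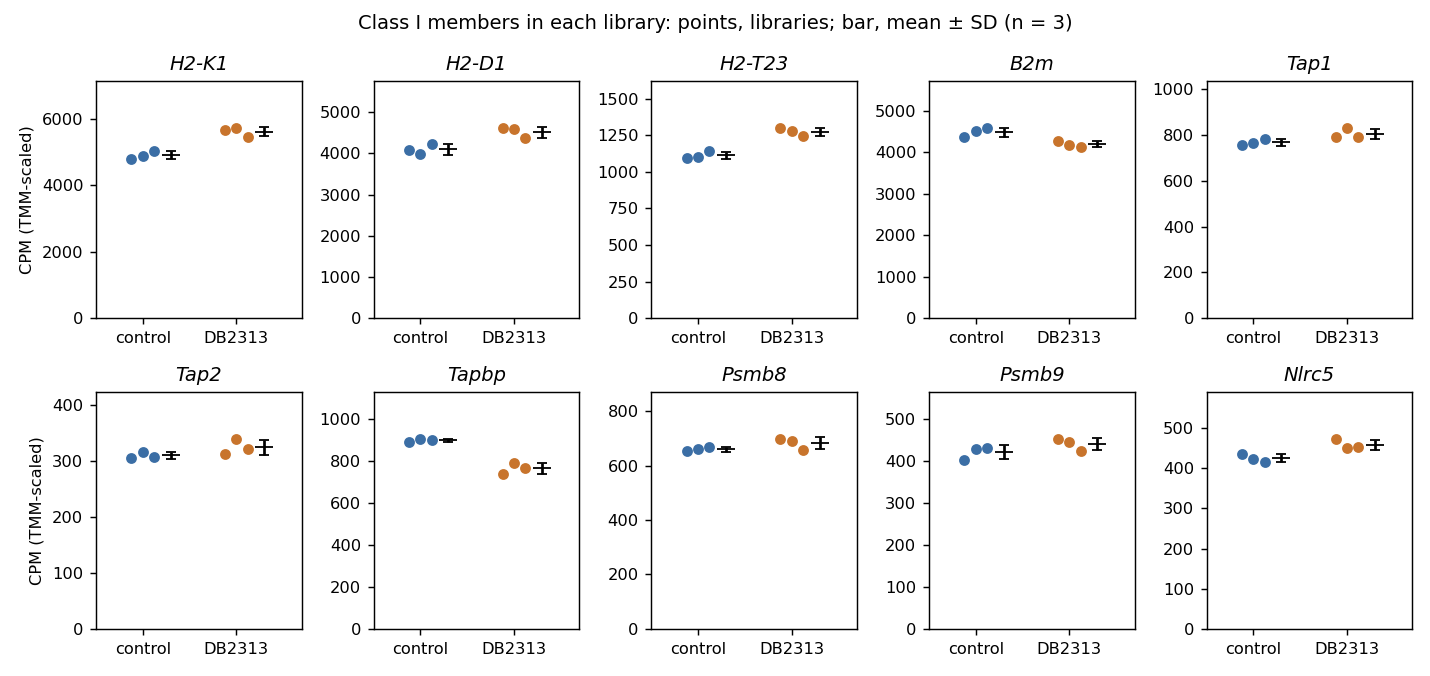
TMM-scaled CPM of the 10 members in each library (vertical axes start at 0; points are libraries, bars are mean ± SD, n = 3 per group). The groups do not overlap for H2-K1, H2-D1, H2-T23, Tap1 and Nlrc5, which are higher with DB2313, and for B2m and Tapbp, which are lower, with TMM scaling.

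The classical heavy chains H2-K1 and H2-D1, which present peptides to CD8T cells, rose slightly with DB2313. H2-K1 (ENSMUSG00000061232, minus strand of chromosome 17 from 33996017 to 34000333) was at 4799.9, 4878 and 5039 CPM in the control libraries and 5672, 5715 and 5458 CPM in the DB2313 libraries. The lowest DB2313 library exceeded the highest control library. The H2-K1 means were 4906 ± 122 and 5615 ± 137 CPM (SD, n = 3 each), a log2 fold change of 0.19 (standard error 0.03, adjusted p = 3.85e-06, edgeR). H2-D1 (ENSMUSG00000073411, plus strand of chromosome 17 from 35262730 to 35267499) was at 4082, 3983 and 4230.2 CPM in the control libraries and 4607, 4588 and 4366 CPM with DB2313. The groups of H2-D1 did not overlap either, although DB2313 replicate 3 was the lowest of its group in both heavy chains. The log2 fold change of H2-D1 was 0.14 (standard error 0.03, adjusted p = 3.97e-04, edgeR).
H2-T23 encodes the heavy chain of Qa-1, a nonclassical molecule whose usual peptide comes from the leader of other class I chains and which is read by the CD94-NKG2 receptors. H2-T23 (ENSMUSG00000067212, minus strand of chromosome 17 from 36029773 to 36032855) was at 1097, 1099 and 1140.4 CPM in the control libraries and 1296, 1278 and 1241 CPM with DB2313. Its groups did not overlap, and its log2 fold change of 0.19 (standard error 0.03, adjusted p = 1.35e-05, edgeR) was close to that of H2-K1. With TMM, 5 members were higher without overlap between the groups and 2 were lower, against 25.6% and 27.5% of all genes tested.
The heavy chain genes resemble each other, so reads can be shared among copies. In GENCODE M21 transcripts, 0.957% of the 100-base stretches of H2-K1, 3.59% of those of H2-D1 and 3.15% of those of H2-T23 were also found in another gene. For 50-base stretches these shares were 9.63%, 12.8% and 14.5%. How reads with several matches were counted is not stated in the sources used here.

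B2m, the light chain that pairs with each of these heavy chains, went the other way. B2m (ENSMUSG00000060802, plus strand of chromosome 2 from 122147686 to 122153083) was at 4368, 4522 and 4579 CPM in the control libraries and 4269, 4189 and 4136 CPM with DB2313. The highest DB2313 library lay just below the lowest control library. With TMM, B2m fell by 0.097 on the log2 scale (standard error 0.03, adjusted p = 0.00596, edgeR). The call was lost with library size scaling (-0.0023, adjusted p = 0.948, edgeR) and with upper quartile scaling (-0.033, adjusted p = 0.380, edgeR).
The ratio of 2 genes within a library does not depend on scaling. The log2 ratio of H2-K1 to B2m counts was 0.136, 0.109 and 0.138 in the control libraries and 0.41, 0.45 and 0.40 with DB2313. Each DB2313 library lay above each control library, and the mean difference was 0.29 (exact permutation test, two-sided, p = 0.1, the smallest that 3 against 3 allow). For H2-D1 to B2m the log2 ratio differed by 0.24, also without overlap (exact permutation test, p = 0.1). These ratios, and those of Tapbp to Tap1 and Nlrc5 to Ciita below, were picked with their values in view, and the p of each is 0.1 after adjustment over the 4 as well.

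Tap1 and Tap2, the subunits of the peptide transporter, did not pass the test, while tapasin fell. Tap1 (ENSMUSG00000037321, plus strand of chromosome 17 from 34187553 to 34197225) was at 756, 765 and 784 CPM in the control libraries and 792, 829 and 793 CPM with DB2313. These groups did not overlap, though the highest control library came close to the lowest DB2313 library, and the fitted change of Tap1 was 0.067 (standard error 0.03, adjusted p = 0.0899, edgeR). Tap2 (ENSMUSG00000024339, plus strand from 34203527 to 34216321 of the same chromosome) was at 305, 317 and 307 CPM in the control libraries and 313, 339 and 321 CPM with DB2313. The Tap2 groups overlapped, with a log2 fold change of 0.065 (standard error 0.04, adjusted p = 0.147, edgeR). Both passed as higher with library size scaling (0.16 each, adjusted p = 1.02e-04 and 5.89e-04, edgeR) and with upper quartile scaling (0.13 each).
Tapbp (ENSMUSG00000024308, plus strand of chromosome 17 from 33915899 to 33929288) had the largest fitted change of the 10 with TMM, but not with library size scaling, where it was at -0.14 and H2-K1 at 0.29, nor with upper quartile scaling, where they were at -0.17 and 0.26. Tapbp was at 891, 905 and 900.0 CPM in the control libraries and 737, 791 and 769 CPM with DB2313, and the groups lay well apart. The means were 899 ± 7.13 and 766 ± 27.4 CPM (SD, n = 3 each), and Tapbp fell by 0.23 on the log2 scale (standard error 0.03, adjusted p = 2.35e-06, edgeR). It was lower under each of the scalings. The log2 ratio of Tapbp to Tap1 counts was 0.24, 0.24 and 0.20 in the control libraries and -0.10, -0.067 and -0.045 with DB2313, a difference of -0.30 without overlap (exact permutation test, two-sided, p = 0.1).

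Psmb8 and Psmb9, the interferon-induced catalytic subunits of the immunoproteasome, did not pass the test. Psmb8 (ENSMUSG00000024338, plus strand of chromosome 17 from 34197721 to 34201454) was at 653, 659 and 670.4 CPM in the control libraries and 697, 692 and 658 CPM with DB2313, a log2 fold change of 0.046 (standard error 0.03, adjusted p = 0.257, edgeR). Psmb9 (ENSMUSG00000096727, minus strand of chromosome 17 from 34181988 to 34187764) was at 401, 428 and 431 CPM in the control libraries and 451, 445 and 424 CPM with DB2313, a log2 fold change of 0.067 (standard error 0.04, adjusted p = 0.135, edgeR). In both genes DB2313 replicate 3 fell within the control range, and without that library Psmb9 passed (0.095, adjusted p = 0.0412, edgeR). Both were called higher with library size scaling (0.14 and 0.16) and with upper quartile scaling (0.11 and 0.13).
Each induced subunit takes the place of a constitutive one, and their ratio compares the RNA of both over all cells of a library. It does not describe the proteasome of a given cell type. The log2 ratio of Psmb8 to Psmb5 counts was 2.43, 2.40 and 2.27 in the control libraries and 2.53, 2.53 and 2.45 with DB2313, a difference of 0.14 without overlap (exact permutation test, two-sided, p = 0.1 and 0.3 after adjustment over 3 ratios). For Psmb9 to Psmb6 the log2 ratio was 1.63 ± 0.05 and 1.65 ± 0.05 (SD, n = 3 each), a difference of 0.012 (exact permutation test, p = 0.8). For Psmb10 to Psmb7 it was 2.22 ± 0.08 and 2.22 ± 0.07 (SD, n = 3 each), a difference of -0.0010 (exact permutation test, p = 1). In the latter pairs the groups overlapped and the difference was smaller than the SD of either group. Induced subunits had 3.10 to 5.16 times the counts of their constitutive counterparts in the control group and 3.13 to 5.67 times with DB2313, on counts not divided by length.

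Nlrc5 is the transactivator that turns on class I genes at their promoters, as Ciita does for class II genes. Nlrc5 (ENSMUSG00000074151, plus strand of chromosome 8 from 94434356 to 94527272) was at 435, 422 and 416 CPM in the control libraries and 472, 449 and 454 CPM with DB2313. The groups did not overlap, and Nlrc5 rose by a log2 fold change of 0.11 (standard error 0.03, adjusted p = 0.00945, edgeR). The call was lost without DB2313 replicate 1, the highest library (0.089, adjusted p = 0.0514, edgeR). Ciita was at 190 ± 2.88 and 34.8 ± 0.469 CPM (SD, n = 3 each), and fell by 2.45 on the log2 scale (standard error 0.04, adjusted p = 2.56e-22, edgeR). Counts of Nlrc5 over Ciita gave a log2 ratio of 1.15 to 1.18 in the control libraries and 3.68 to 3.75 with DB2313, a difference of 2.56 (exact permutation test, two-sided, p = 0.1).
Several members overlap other genes in their exons, and whether counting used the strand is not stated in the sources used here. Tap1 and Psmb9 lie head to head and share 212 bases on opposite strands, 3.87% of the exonic bases of Tap1 and 5.79% of those of Psmb9. Tapbp shares 904 bases, 24.9% of its exonic bases, with Gm19412 on the opposite strand, which had 2 counts over the 6 libraries, and 149 bases (4.11%) with Zbtb22 on the same strand. Tap2 shares 533 bases, 14.1% of its exonic bases, with Gm15821 on the opposite strand, which had 267 counts over the 6 libraries against 33448 of Tap2. Psmb8 shares 498 bases with the antisense gene Gm20496, which had 173 counts over the 6 libraries against 70878 of Psmb8. B2m and the 3 heavy chains overlapped no other exon in GENCODE M21.

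Levels were compared between members per kilobase of the deposited gene length. The order in CPM per kilobase was B2m, H2-K1, H2-D1, H2-T23, Tapbp, Psmb8, Tap1, Psmb9, Tap2 and Nlrc5 in the control group. B2m stood at 5220.4 ± 127 CPM per kilobase, H2-K1 at 1881 ± 46.7, and Nlrc5, the lowest, at 49.98 ± 1.19 (SD, n = 3 each). On this scale B2m was 104 times and H2-K1 37.6 times Nlrc5 in the control group, and 90.5 and 39.9 times with DB2313. No neighbours in this order had overlapping ranges in either group.
The order of CPM per kilobase was the same with DB2313 except that Tapbp and Psmb8 changed places. Tapbp was at 273 ± 2.16 and Psmb8 at 242 ± 3.26 CPM per kilobase in the control group, and at 232 ± 8.33 and 249 ± 7.75 with DB2313 (SD, n = 3 each). In the DB2313 group the lowest Psmb8 library, at 240.5, lay just above the highest Tapbp library, at 240.1 CPM per kilobase, so their order there is set by a narrow gap. That order also depends on the length used. The deposited lengths were 3296 bases for Tapbp and 2736 for Psmb8, against 3628 and 3381 exonic bases in GENCODE M21. With the latter lengths the 2 genes would not change places. The 10 members together took 1.73% to 1.78% of all counts in the control libraries and 1.93% to 1.99% with DB2313, shares that are not scaled by TMM.

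**Figure D3:**
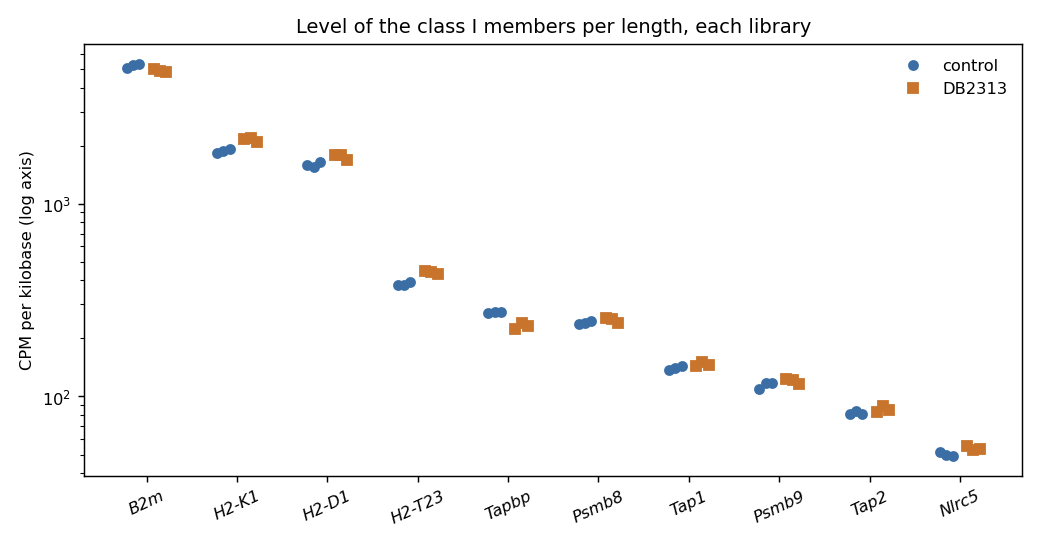
CPM per kilobase of the 10 members on a log axis, each library shown (circles, control; squares, DB2313; n = 3 per group), ordered by the control mean. B2m is highest and Nlrc5 lowest in both groups. With the deposited gene lengths, Tapbp lies above Psmb8 in the control libraries and below it with DB2313.

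The other heavy chains of class I and class I-like molecules spread more widely than the 10 members, without a test of that difference. Of 19 such genes, 18 had counts and 15 were tested, of which 8 rose and 4 fell, against 20.8% of all genes higher and 24.6% lower, so the lower share is near that of all genes. Their median log2 fold change was 0.26 against 0.019 over all genes. H2-Q7, the most abundant and a source of the Qa-2 antigen, went from 526 ± 28.8 to 752 ± 13.3 CPM (SD, n = 3 each), a log2 fold change of 0.52 (standard error 0.04, adjusted p = 2.68e-11, edgeR). H2-T10, annotated as a polymorphic pseudogene, whose product is a ligand of some gamma delta T cell receptors, went from 56.8 ± 4.26 to 85.7 ± 5.16 CPM (SD, n = 3 each), a log2 fold change of 0.59 (standard error 0.06, adjusted p = 1.13e-08, edgeR). Of the 100-base stretches of H2-Q7, 11.98% were also found in another gene, H2-Q10 foremost, so the division of reads among the H2-Q genes is uncertain.
The largest falls in that list were in Cd1d1 and H2-M2. Cd1d1, which presents lipids to natural killer T cells, averaged 171 ± 1.10 CPM in the control group and 55.1 ± 2.43 CPM with DB2313 (SD, n = 3 each), and fell by 1.64 on the log2 scale (standard error 0.04, adjusted p = 2.69e-19, edgeR). H2-M2, a class Ib gene, stood at 37.8 ± 2.05 CPM without and 8.60 ± 0.261 CPM with DB2313 (SD, n = 3 each), and fell by 2.13 (standard error 0.09, adjusted p = 1.43e-15, edgeR). Mr1 and Cd1d2 were the other 2 that fell, at log2 fold changes of -0.23 and -0.88, but Mr1 was near the threshold (adjusted p = 0.0494, edgeR) and Cd1d2 had a mean of 2.24 CPM in the control group. Under DESeq2, and without control replicate 3, DB2313 replicate 1 or DB2313 replicate 3, 2 genes of the list were lower. H2-M9 had 0 counts in all 6 libraries, which allows up to 3 counts in each.

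Of the 6 genes of peptide loading chaperones and trimming, 4 fell and none rose, against 24.6% of all genes lower and 20.8% higher, and the median log2 fold change was -0.11. The chaperones of new heavy chains were among them. Calr was at 975 ± 22.9 and 864 ± 16.4 CPM (SD, n = 3 each) and fell by 0.17 on the log2 scale (standard error 0.03, adjusted p = 6.18e-05, edgeR), and Canx fell by 0.17 (standard error 0.04, adjusted p = 3.94e-04, edgeR), a call that Canx lost with library size scaling (-0.076, adjusted p = 0.0774). Pdia3, the disulfide isomerase bound to tapasin, had a log2 fold change of -0.091 that passed with TMM (adjusted p = 0.0192, edgeR) but not with the replicate number as a block (adjusted p = 0.0558), with upper quartile scaling (-0.027), or once any of 3 libraries was left out: control replicate 1 (-0.083), control replicate 3 (-0.083) and DB2313 replicate 3 (-0.079). The tapasin homolog Tapbpl was at -0.048 (adjusted p = 0.299, edgeR) and the trimming peptidase Erap1 at 0.013 (adjusted p = 0.813, edgeR). Without control replicate 1, 2 genes of this list were lower, and with library size scaling 1 was lower and 1 higher.
In the list of the immunoproteasome and its activator, 2 of 4 genes fell and 2 did not pass, against 24.6% of all genes lower. Pomp, the proteasome assembly factor, averaged 193 ± 0.846 CPM in the control group and 144 ± 4.82 CPM with DB2313 (SD, n = 3 each), and fell by 0.42 on the log2 scale (standard error 0.04, adjusted p = 1.48e-09, edgeR). Psme2 fell by 0.28 (standard error 0.03, adjusted p = 1.88e-07, edgeR), while Psme1, its partner in the PA28 activator, was at 0.039 (adjusted p = 0.393, edgeR) and Psmb10 at -0.040 (adjusted p = 0.414, edgeR). Of the 14 constitutive proteasome subunits, 2 rose (Psmb4 and Psmb1, at 0.22 and 0.14), 3 fell, among them Psmb2 and Psma1 (at -0.22 and -0.14), and 9 did not pass, with a median of -0.021. These shares are near or below the 20.8% of all genes higher and 24.6% lower, and Psma1 lost its call with library size scaling (-0.043, adjusted p = 0.370, edgeR) and with upper quartile scaling (-0.073, adjusted p = 0.135, edgeR). Psmb5, Psmb6 and Psmb7, the subunits that the induced ones replace, were among those that did not pass, at -0.093, 0.055 and -0.041. Without control replicate 1, Psmb5 passed as lower (-0.13, adjusted p = 0.0321, edgeR) and Psmb6 was at 0.028. Without control replicate 3, Psmb5 was at -0.032, Psmb6 at 0.10 and Psmb7 at -0.071, and without control replicate 2 Psmb7 was at -0.0082.

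**Figure D4:**
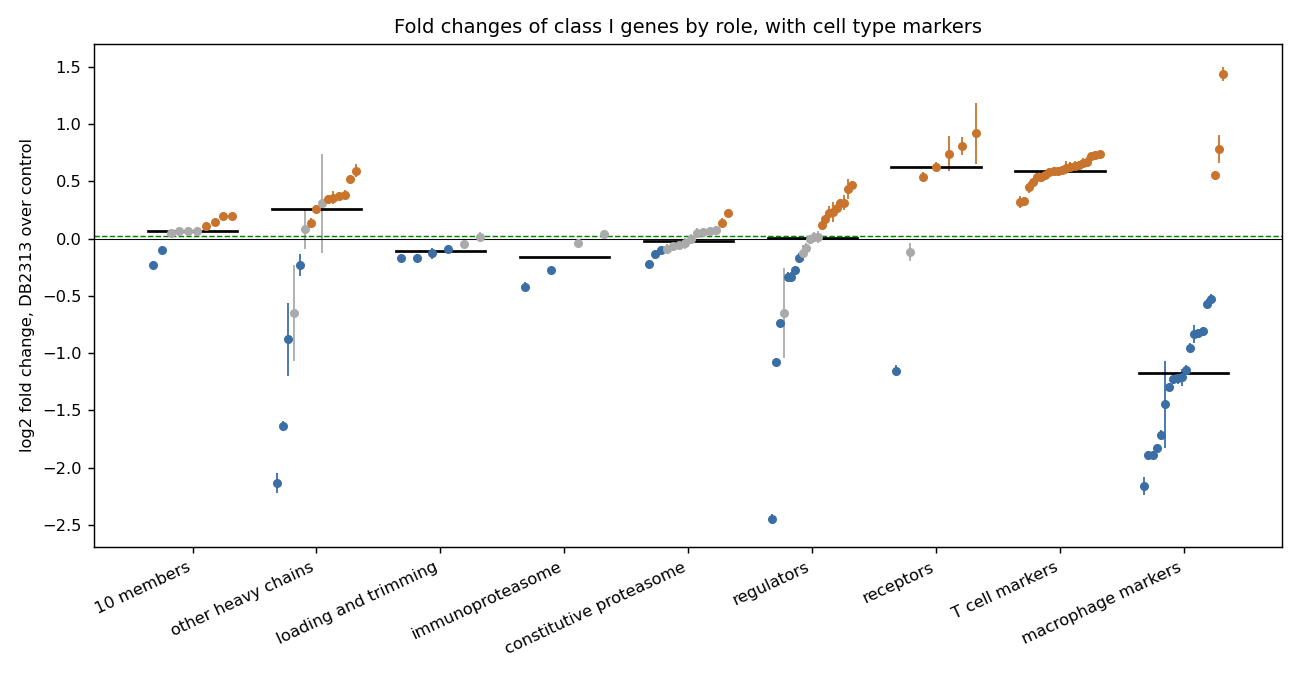
Log2 fold changes of DB2313 over control (points, standard error as bars) for the tested genes of each list; orange and blue mark genes higher and lower at an adjusted p below 0.05 (edgeR, TMM), grey those that did not pass, black lines the list medians and the dashed line the median of all genes. The 10 members lie between -0.23 and 0.19, the T cell markers between 0.32 and 0.74, and the macrophage markers have a median of -1.18.

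Among 22 regulators of these genes, 9 rose, 7 fell and 6 did not pass, against 20.8% of all genes higher and 24.6% lower, with a median of 0.0038. Ifngr1, the ligand-binding chain of the IFN-γ receptor, went from 255 ± 2.57 to 353 ± 1.69 CPM (SD, n = 3 each), a log2 fold change of 0.47 (standard error 0.03, adjusted p = 2.35e-11, edgeR). Rfxank, a subunit of the RFX complex that binds class I and class II promoters, rose by 0.43 (standard error 0.09, adjusted p = 1.96e-04, edgeR). Irf1, the most abundant of the list, was at 635 ± 13.5 and 632 ± 14.3 CPM (SD, n = 3 each), a log2 fold change of -0.0049 (adjusted p = 0.916, edgeR). Irf8 fell by 1.08 (standard error 0.03, adjusted p = 1.10e-17, edgeR). Ifng itself was at 1.34 ± 0.251 and 0.842 ± 0.445 CPM (SD, n = 3 each), and did not pass with TMM (-0.65, standard error 0.39, adjusted p = 0.190, edgeR). Without DB2313 replicate 1 Ifng was at -1.10 and without DB2313 replicate 2 at -0.33, neither of which passed, and it passed as lower with T cell marker scaling (-1.23, adjusted p = 0.00675, edgeR). Spi1, whose product DB2313 inhibits, was at 286 ± 6.75 and 156 ± 6.20 CPM and fell by 0.88 (standard error 0.04, adjusted p = 2.58e-15, edgeR).
Of 7 receptors that read class I molecules, 5 rose, Pirb fell and Klrk1 did not pass, against 20.8% of all genes higher and 24.6% lower, and the median was 0.63. Cd8a and Cd8b1, the chains of the CD8 coreceptor, had log2 fold changes of 0.53 and 0.63, which are also T cell markers here. Klrd1 (CD94), a chain of the receptor for Qa-1, went from 17.7 ± 1.31 to 31.1 ± 0.837 CPM (SD, n = 3 each), a log2 fold change of 0.81 (standard error 0.08, adjusted p = 1.39e-08, edgeR). Pirb, an inhibitory receptor for class I molecules on myeloid and B cells, fell by 1.15 (standard error 0.05, adjusted p = 2.68e-15, edgeR).

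RNA of several cell types was counted in the libraries, and in bulk RNA fewer cells of a type and less RNA per cell cannot be told apart. Library totals ranged from 16611975 to 18596217 counts. The marker lists were chosen with earlier results of these data known, and 20.8% of all genes tested were higher and 24.6% lower. All 20 T cell markers were higher with DB2313, and together they took 0.370% to 0.376% of the counts in the control libraries and 0.595% to 0.601% with DB2313. Of 20 macrophage markers, 17 were lower and 3 (Marco, Trem2 and Ms4a7) higher. The summed share of the 20 was 1.11% to 1.13% in the control libraries and 0.414% to 0.426% with DB2313. Lyz2 held most of the macrophage marker counts in the control libraries, with a mean of 7702 CPM there against 2084 CPM with DB2313. Its log2 fold change was -1.89, against a list median of -1.18, so the fall of the summed share depends largely on Lyz2. Which cells gave the RNA of Lyz2 was not tested. Of 11 dendritic cell markers, 10 were tested, 7 lower and 2 higher, with shares of 0.168% to 0.171% and 0.158% to 0.162%, and Siglech at 0 counts. Most of that share came from Ccr7 and Fscn1, with log2 fold changes of -0.10 and -0.20, against a list median of -0.34. That share therefore follows these genes, and which cells gave their RNA was not tested. Cd209a, Itgax and Clec9a, with control means of 3.96, 107 and 7.25 CPM, were at -3.54, -2.52 and -2.15. Clec10a and Flt3 were the markers that rose, at 1.18 and 0.36. Neutrophil markers (8 of 9 lower) took 0.161% to 0.162% of the control counts and 0.0433% to 0.0469% with DB2313. B cell markers (3 of 6 higher, 1 lower) took 0.00466% to 0.00507% and 0.00648% to 0.00656%, and stromal markers (1 of 3 tested higher) 0.0114% to 0.0119% and 0.0133% to 0.0138%. Pecam1, the stromal marker that rose (means of 115 and 127 CPM), held nearly all counts of its list, so that share follows Pecam1. Which cells gave the RNA of Pecam1 was not tested. Col1a1 and Col1a2, at 2.11 and 2.07 CPM in the control group, did not pass (-0.33 and -0.056). For the summed share of each of these 6 lists the groups did not overlap (exact permutation test, two-sided, p = 0.1). Among single genes tested, 25.6% were higher and 27.5% lower without overlap in TMM-scaled CPM. The part of these lists in the class I values was not tested.
Set against the summed T cell markers, each of the 10 members was lower with DB2313 without overlap, as were 78.1% of all genes tested, so this is no feature of the members. The log2 ratio of H2-K1 to the summed T cell marker counts was 0.31, 0.35 and 0.38 in the control libraries and -0.026, -0.025 and -0.085 with DB2313, a difference of -0.39. The difference was -0.44 for H2-D1, -0.39 for H2-T23, -0.68 for B2m and -0.82 for Tapbp. It lay between -0.54 and -0.47 for Tap1, Tap2, Psmb8, Psmb9 and Nlrc5. The exact permutation test gave a two-sided p of 0.1 for each, also after adjustment over the 10. With libraries scaled to these markers, the median change was -0.52 for the members and -0.56 for all genes. The members' median log2 fold change of 0.067 lay between those of the T cell markers, 0.59, and of the macrophage markers, -1.18. So did the median of all genes tested, 0.019, so this is no feature of the members.

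**Figure D5:**
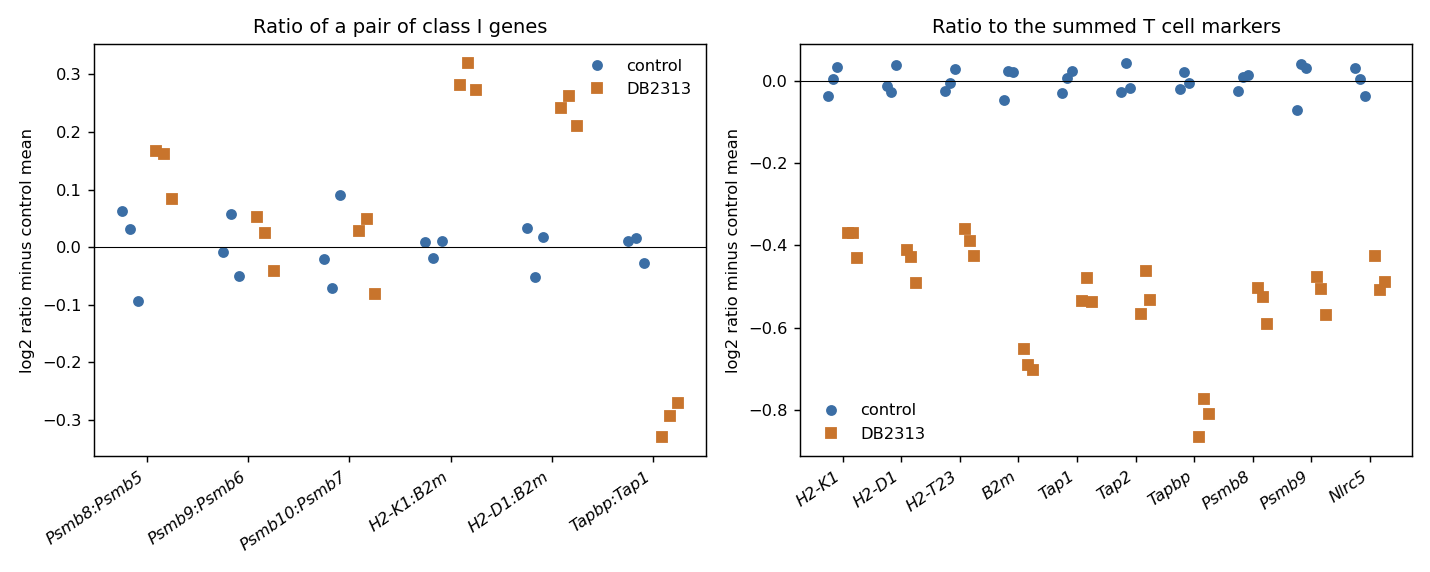
Log2 ratios of counts within each library, less the control mean (circles, control; squares, DB2313; n = 3 per group): pairs of class I genes on the left, members over the summed T cell markers on the right. H2-K1:B2m and H2-D1:B2m are higher and Tapbp:Tap1 lower in each DB2313 library, and each member, like 78.1% of all genes, is lower relative to the T cell markers.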

How the data were processed

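RNA from 3 control and 3 DB2313 samples was sequenced. The authors deposited raw counts per gene, without normalization; the paper names LifeScope for alignment and counting, while the submitters' processing notes list CASAVA 1.8, HISAT2 2.0.5 and featureCounts 1.5.0-p3. Build, read filters and strand are not given in the sources used here; 98.3% of 54409 shared genes had the coordinates of GENCODE M21 (GRCm38), as had 7 of the 10 members. Columns were matched to samples by label.

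Counts were analysed with edgeR 4.0.16 in R 4.3.3 (filterByExpr, TMM, glmQLFit, glmQLFTest, Benjamini-Hochberg over all genes tested). Standard errors came from the fitted change and its F statistic. Ratios and shares were tested with SciPy 1.17.1, and the steps were tested on simulated data. Promoter sequences are from RefSeq (GRCm38.p6), found for 8 of the 10 members (not Tap2 or Nlrc5), with the most upstream start taken. Replicates of a group differed by more than sampling noise (chi-square per gene of 2.48 or more). Floors cover counting error only, since reads are not independent molecules.

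The members and lists were chosen with earlier results of these data known. Named genes were the members, their fixed partners and regulators, and from each class I list the most abundant gene and the 2 largest rises and falls past an adjusted p of 0.05 with at least 10 CPM; genes near a count or a limit were named after their values were seen, and a gene that the rule names among the regulators is not reported here. Alternatives were DESeq2 1.42.0, other scalings, filters, protein-coding genes, a replicate block, a fold threshold and leaving out each sample.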

Additional observations from a re-analysis of the deposited data

How the results depend on the processing

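Over the alternatives, 120 of 140 refits of the members' fold changes kept direction and side of the threshold, and most of the 140 kept TMM scaling. Of the others, 8 changed sign, each with T cell marker scaling. Most of the rest came from library size or upper quartile scaling. The members' counts stood at 8 higher and 1 lower with library size and with upper quartile scaling, 0 and 10 with T cell marker scaling, and 0 and 0 with the fold threshold; over the fits that each left out a sample they were 3 to 5 and 2 to 2. Over all genes, 4931 were higher with library size scaling, 178 higher and 11498 lower with T cell marker scaling, and 204 and 789 with the fold threshold; leaving out samples gave 2558 to 2894 higher and 3279 to 3516 lower. A change of scaling factors moves all genes by about the same amount (the median of all genes by -0.58 with T cell marker scaling), and the fold threshold leaves fewer genes by construction.

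With library size scaling B2m was at -0.0023, Tap1 at 0.16, Tap2 at 0.16, Psmb8 at 0.14, Psmb9 at 0.16, and changes of sign were seen in Psmb5 (0.0013), Psmb7 (0.053), Psmb10 (0.055), Tapbpl (0.046), Pdia3 (0.0035) and Irf1 (0.089). With upper quartile scaling B2m was at -0.033, Tap1, Tap2 and Psmb9 at 0.13, Psmb8 at 0.11, and Psmb7 (0.023), Psmb10 (0.024), Tapbpl (0.016) and Irf1 (0.059) changed sign. With T cell marker scaling H2-K1 was at -0.39, H2-D1 at -0.44, H2-T23 at -0.39, Tap1 at -0.52, Tap2 at -0.52, Psmb8 at -0.54, Psmb9 at -0.52, Nlrc5 at -0.47, Psmb6 at -0.53, Psme1 at -0.55, Erap1 at -0.57, H2-Q7 at -0.068, Psmb4 at -0.36, Psmb1 at -0.45, Ifngr1 at -0.12, Rfxank at -0.15 and Cd8a at -0.051.

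For the other lists, T cell marker scaling gave 0 higher and 12 lower heavy chains, 4 lower genes of the immunoproteasome list, 0 higher and 14 lower constitutive subunits, 0 higher and 21 lower regulators, and 1 higher and 2 lower receptors. With that scaling 1.20% of all genes were higher and 77.3% lower, so these counts are not read as a result about the lists. Library size scaling gave 1 higher and 1 lower loading gene, 1 higher immunoproteasome gene, and 6 higher and 1 lower constitutive subunits. Upper quartile scaling gave 2 lower, 1 higher, and 6 and 1 for these lists. Of all genes, 33.1% were higher and 19.2% lower with library size, and 29.0% and 20.8% with upper quartile. DESeq2 gave 2 lower heavy chains, and leaving out samples gave 2 to 4 lower heavy chains and 2 to 4 lower loading genes. The causes were not tested.

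Calls gained with library size scaling were Psmb6 (0.15), Psme1 (0.13) and Erap1 (0.11), and with upper quartile scaling Psmb6 (0.12) and Psme1 (0.10). With T cell marker scaling, H2-T10 (0.0083) and Cd8b1 (0.044) lost their calls, and Psmb5 (-0.68), Psmb7 (-0.63), Psmb10 (-0.62), Tapbpl (-0.63) and Irf1 (-0.59) gained one.

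Leaving out a sample moved Psmb5 between -0.13 and -0.032, Psmb6 between 0.028 and 0.10, Psmb7 between -0.071 and -0.0082, Psmb9 between 0.036 and 0.095, Nlrc5 between 0.089 and 0.13, Psmb10 between -0.080 and 0.00070, Erap1 between -0.023 and 0.043 and Irf1 between -0.020 and 0.015. The Psmb9 to Psmb6 difference ranged from -0.013 to 0.041 and that of Psmb10 to Psmb7 from -0.036 to 0.044, with sign changes without control replicate 3, DB2313 replicate 1 or DB2313 replicate 3. Samples with the same number did not deviate together (correlations of -0.0033, -0.014 and -0.023), so the numbers were not taken as pairs; with the replicate block H2-K1 was at 0.19, Tapbp at -0.23, and 4 members were higher and 2 lower. Leaving out a sample leaves ratios with a smallest exact p of 0.2. No sample group was large enough for a check of single outlying libraries.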
